A study of Mus musculus with 4 samples.

Results

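Messenger RNA of 10 tubulin isotypes was followed in retinal ganglion cells of the mouse after crush of their axons in the optic nerve and a knockdown aimed at the microRNA miR-132-3p. The isotypes were taken from the counts table by gene symbol after the version was removed from each Ensembl identifier. All 10 were found among 78334 identifiers: the alpha genes Tuba1a, Tuba1b, Tuba1c and Tuba4a, and the beta genes Tubb2a, Tubb2b, Tubb3, Tubb4a, Tubb4b and Tubb5. All 10 passed the filter on low counts.

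Alpha and beta tubulin pair as heterodimers, which stack into the hollow microtubules that hold up an axon and carry its transport. Isotypes of a class are alike over most of their length and differ mainly in the acidic tail at the C-terminal end, where modifying enzymes, motors and microtubule-associated proteins bind. Tubb3 is a beta isotype largely restricted to neurons and a customary marker of retinal ganglion cells, Tubb4a is abundant in the nervous system, Tuba1a is the main alpha isotype of neurons, and Tubb5 and Tubb4b are made in most tissues.

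Both groups were wild-type mice of both sexes, 8 to 12 weeks of age at the surgeries, whose eyes received 2 µl of an AAV2 vector (adeno-associated virus of serotype 2) at 8 weeks of age, 2 weeks before the crush, with cells collected 2 weeks after it. The control vector carried a scramble shRNA (the scramble group), the other vector an anti-miR132-3p shRNA (the anti-miR group), and both expressed mCherry. No uninjured or uninjected group was analysed here, so every value comes from crushed, transduced eyes. Cells from 10 retinas per condition were pooled, panned with Thy1 and sorted for mCherry, at about 5000 cells per replicate. The labels put transduction at about 40%.

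Polyadenylated RNA was counted in 2 libraries per group, with totals from 1731199 to 1846637 counts. The 2 libraries of a group differed by no more than sampling noise (over 11427 genes, chi-square divided by its degrees of freedom was 1.01 for the scramble pair and 0.99 for the anti-miR pair, against 4.39 to 4.41 across groups). Each pair was therefore counted as 1 sample: each group has n = 1, without an SD and without a replicate check on any comparison below. Nothing says that the libraries came from separate animals. The scramble group was read from the columns headed mCherry because the other columns are headed miR132, and every direction rests on that. Ganglion cell markers Slc17a6 and Nefl were at 313 and 615 CPM (counts brought to a common library size after TMM scaling, edgeR's trimmed mean of M-values) in the scramble group, whereas the ganglion cell factor Pou4f2 had 8 counts there and 7 in the anti-miR group.

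The anti-miR132-3p insert is the reverse complement of the whole mature microRNA, and the scramble insert is not. The capitals in the microRNA, from RefSeq (GRCm38.p6), mark its seed, bases 2 to 8.
miR-132-3p: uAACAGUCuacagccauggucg
anti-miR132-3p insert: cgaccatggctgtagactgtta
scramble insert: tcgagggcgacttaaccttagg
A match to this seed, GACTGTT on the transcript, was found in the annotated 3' UTR of 0 of the 10 isotypes and of 13.0% of 10332 tested genes with an annotated 3' UTR, in 1 GENCODE M21 transcript per gene. A lack of these letters in the searched part says nothing about other parts of the transcripts. The 13.0% was not matched for the length of the 3' UTR, which ran from 101 bases in Tuba1c to 1394 in Tuba4a, so a shortage of matches in the isotypes was not tested.

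The ends of the coding sequences show how far the isotypes can be told apart by sequence. The last 60 coding bases, stop codon included, are shown for the closest beta pair, from GENCODE M21 transcripts, with capitals on the bases that differ within the pair.
Tubb2a: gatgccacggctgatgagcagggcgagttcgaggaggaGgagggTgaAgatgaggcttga
Tubb2b: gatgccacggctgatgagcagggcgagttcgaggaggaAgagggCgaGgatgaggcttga
The coding sequences of Tuba1a and Tuba1b were 98.3% identical and those of Tubb2a and Tubb2b 96.5%. The corresponding ends of 3 beta isotypes without such a close partner are shown with the stop codon in capitals.
Tubb3: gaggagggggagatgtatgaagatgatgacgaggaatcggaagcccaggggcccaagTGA
Tubb4a: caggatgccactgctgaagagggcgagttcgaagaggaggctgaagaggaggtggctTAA
Tubb5: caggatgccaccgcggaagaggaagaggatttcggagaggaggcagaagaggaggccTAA
Over the whole coding sequence Tubb3 was 81.5% and Tubb4a 83.9% identical to Tubb5, but with these ends alone aligned, Tubb3 was 53.1% and Tubb4a 79.4% identical to it. Over the 6 alpha pairs coding identity ran from 84.7% to 98.3%, over the 15 beta pairs from 81.5% to 96.5%, and between alpha and beta genes it stayed at 54.5% to 57.1%.

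This likeness limits the counts, because reads were 100 bases long and the read counter is not given in the sources used here. In Tuba1a, Tuba1b and Tuba1c, 65.9%, 73.0% and 53.4% of the 100-base windows of the transcript stood unchanged in the transcript of at least 1 other gene, among them pseudogenes. In Tubb2a and Tubb2b the shares were 36.9% and 27.8%, nearly all of it with each other. Tubb4b shared 30.6% of its windows, mostly with the pseudogene Tubb4b-ps1, which had 9 counts over the 4 libraries.

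Tubb3, Tubb4a and Tubb5 shared 0 windows with any other gene in that annotation. In Tuba4a the 46.7% that were shared lay against Stk16, a kinase gene whose transcript overlaps it on the opposite strand, and the strand setting of the counting is not given. Stk16 had 241 counts in the scramble group and 188 in the anti-miR group. Levels, folds and shares of the 3 Tuba1 genes, of Tubb2a and Tubb2b, of Tubb4b and of Tuba4a are therefore uncertain. The same holds for the order of the isotypes by level and for the split of counts between alpha and beta genes.

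**Figure D1:**
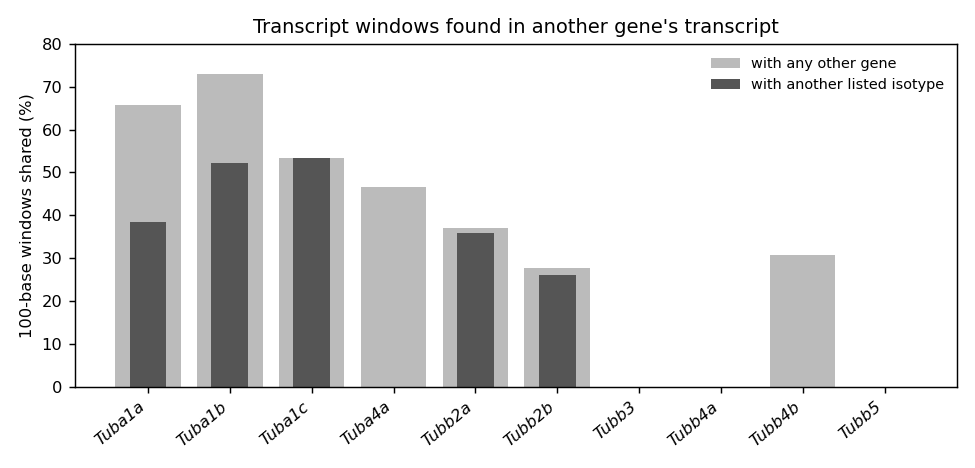
Percent of the 100-base windows of each isotype's transcript (vertical axis) that stand in a transcript of any other gene (grey) or of another listed isotype (dark), on either strand. Tubb3, Tubb4a and Tubb5 are at 0, and Tuba1b is highest at 73.0%.

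Per kilobase of transcript, Tuba1a had the highest level in the scramble group, at 361 CPM per kb, followed by Tubb4a at 307, Tubb5 at 211, Tubb2a at 163 and Tubb3 at 136 CPM per kb. Tuba1c was at 66.6, Tuba1b at 53.3, Tubb4b at 51.8, Tuba4a at 26.4 and Tubb2b at 16.5 CPM per kb. Tuba1b and Tubb4b were the only neighbours in this order whose ratio had an exact 95% interval that held 1 (1.03, 0.879 to 1.21).

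With the anti-miR132-3p shRNA the order was changed at 3 places. Tubb4a, at 396 CPM per kb, stood above Tuba1a, at 359 CPM per kb (ratio 1.1, 1.05 to 1.17). Tubb3, at 193 CPM per kb, stood above Tubb2a, at 166 CPM per kb (ratio 1.16, 1.06 to 1.26). Tubb4b, at 59.8 CPM per kb, stood above Tuba1b, at 47.4 CPM per kb (ratio 1.26, 1.07 to 1.48). Tuba1c, at 67.3 CPM per kb, and Tubb4b were the neighbours whose interval held 1 (1.12, 0.975 to 1.30). All of these intervals cover counting error only.

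**Figure D2:**
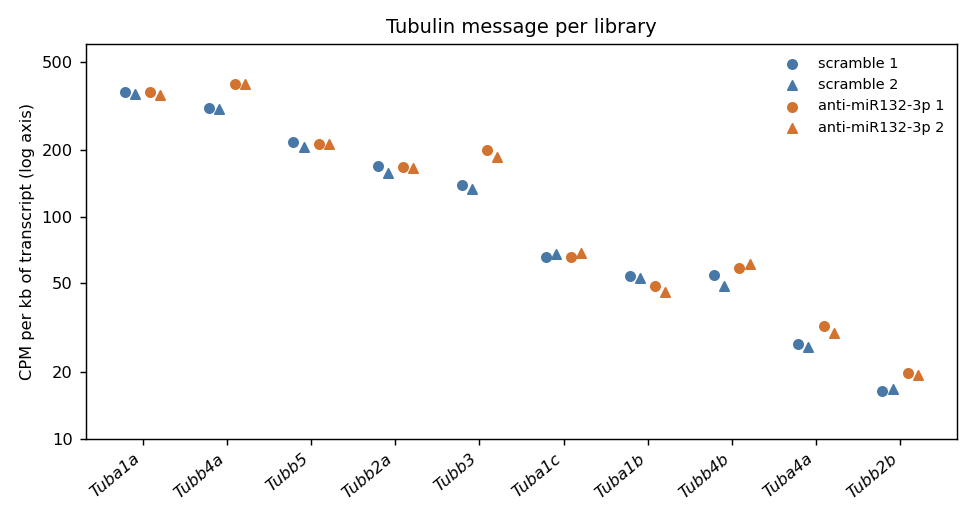
Level of each isotype in CPM per kb of transcript (log axis) in each of the 4 libraries, ordered by the scramble level. The anti-miR libraries lie above the scramble libraries for Tubb3, Tubb4a, Tuba4a, Tubb2b and Tubb4b and below them for Tuba1b. The groups overlap for Tuba1a, Tuba1c, Tubb5 and Tubb2a.

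The comparison of the shRNAs asks which tubulin messages differ when miR-132-3p is targeted in injured ganglion cells. Tubb3 and Tubb4a were higher in the anti-miR group, by 1.42-fold and 1.29-fold, and the other 8 isotypes lay between 0.889 and 1.18 of the scramble level with intervals that held 1. In bulk RNA, fewer cells of a type and less RNA per cell cannot be told apart. A gene counts as past the fold here when its level from the summed counts is at least 25% higher or 20% lower and the exact 95% interval of the ratio lies outside 1. By this rule 2 of 10 isotypes were higher and 0 lower, beside 16.7% of all tested genes higher and 10.3% lower. Among the 5221 tested genes with at least as many counts as the least counted isotype (281 over the 4 libraries), 15.1% were past the fold higher and 12.4% lower. The isotypes' share is thus near the background.

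Tubb3, the neuronal beta isotype, had 473 and 454 counts in the scramble group and 653 and 605 in the anti-miR group. This is 259 and 248 CPM against 373 and 346 CPM, so both libraries of the second group lay above both of the first. The ratio was 1.42 (1.30 to 1.55), at percentile 84.6 of the ratios of all tested genes. Tubb3 is also a common marker of the sorted cell type. The summed level of 11 other ganglion cell markers was 1670 against 1742 CPM, a ratio of 1.04 (1.01 to 1.08). Of the 10 tested, edgeR called 2 higher and 1 lower, beside 13.5% and 10.4% of all tested genes. One of the 11 markers is Thy1, the antigen used for panning, at 223 against 328 CPM (ratio 1.47, 1.34 to 1.61). Without Thy1 the other 10 summed to 1447 against 1413 CPM, a ratio of 0.977 (0.940 to 1.02). Of these 10, the neurofilament gene Nefm had an interval above 1 (ratio 1.30), the transcription factors Pou4f1 and Isl1 had intervals below 1 (ratios 0.681 and 0.683), and the intervals of the remaining 7 held 1.

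Tubb4a, the most counted isotype, had 1256 and 1247 counts in the scramble group and 1547 and 1536 in the anti-miR group. The levels were 688 and 681 CPM against 885 and 879 CPM, and the libraries of the groups did not overlap. The ratio was 1.29 (1.22 to 1.36), at percentile 78.4 of all tested genes.

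Of the alpha genes, Tuba1a was level between the groups, at 658 and 642 CPM against 656 and 637 CPM (ratio 0.994, 0.938 to 1.05). Tuba1c was at 130 and 134 CPM against 131 and 136 CPM (1.01, 0.887 to 1.15). For both genes the libraries of the groups overlapped. Tuba1b had 172 and 168 counts against 149 and 140 (ratio 0.889, 0.758 to 1.04), the only isotype whose anti-miR libraries both lay below the scramble libraries. Tuba4a, an alpha isotype whose gene encodes no C-terminal tyrosine, had 139 and 135 counts against 160 and 148 (1.18, 0.996 to 1.39). Its libraries did not overlap, but the interval held 1.

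Of the other beta genes, Tubb5 was at 573 and 546 CPM against 564 and 563 CPM (ratio 1.01, 0.947 to 1.07), and Tubb2a at 273 and 253 CPM against 270 and 266 CPM (1.02, 0.930 to 1.12). In both the groups overlapped. Tubb2b, which stands next to Tubb2a in the genome, had 65 and 67 counts against 75 and 74 (1.18, 0.928 to 1.5). Tubb4b had 160 and 143 counts against 164 and 170 (1.15, 0.984 to 1.35). At these depths a change of about the size seen for Tubb4a was not excluded for Tubb2b, Tuba4a or Tubb4b, since their intervals reached 1.35 or more. In all, the libraries of the groups did not overlap for 6 isotypes, 5 above and 1 below, beside 31.1% above and 30.7% below (61.8% in all) of all tested genes.

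**Figure D3:**
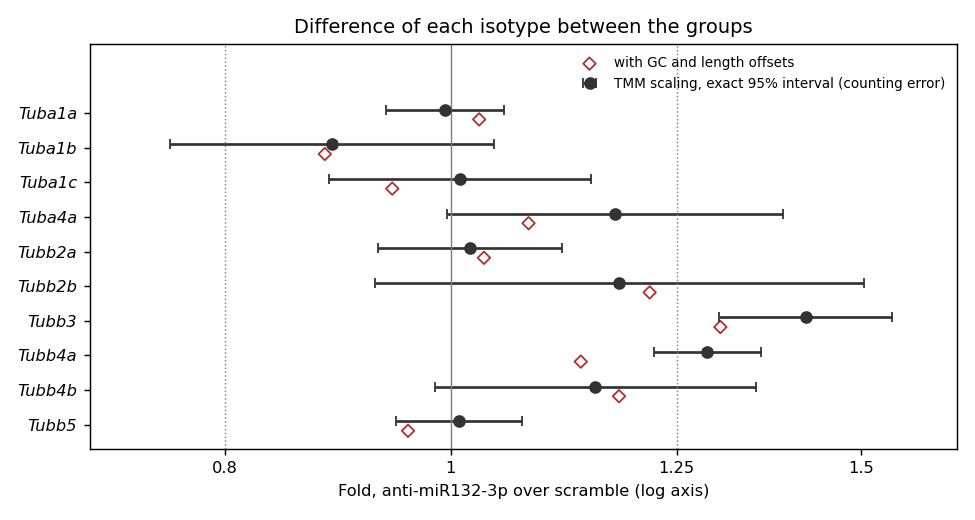
Ratio of the anti-miR to the scramble level of each isotype (horizontal log axis) with its exact 95% interval (dots and bars, counting error only), and the ratio from a fit with GC and length offsets (diamonds). Dotted lines mark 20% lower and 25% higher, and of the 10 isotypes only Tubb3 lies beyond the upper line in both.

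edgeR's quasi-likelihood test, with Benjamini-Hochberg adjustment over 11427 genes, called Tubb3 (log2 fold change 0.51, SE 0.098, adjusted p = 1.39e-05) and Tubb4a (0.37, SE 0.065, adjusted p = 1.66e-06) higher, and none of the other 8, of which Tuba4a had an unadjusted p under 0.05 (0.046). It called 13.5% of all tested genes higher and 10.4% lower, and 16.2% and 18.3% of those with at least 281 counts. This test compares the reads of these libraries and not the conditions. The calls of both isotypes were lost whenever 1 library was left out (adjusted p from 0.19 to 0.20, with the fold rule still met) and with an assumed coefficient of variation of 0.1 between pools (adjusted p = 0.17 for Tubb3 and 0.38 for Tubb4a), while DESeq2's Wald test kept both.

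Tubb3 and Tubb4a had the highest GC content of the 10 transcripts, 57.9% and 57.2%, against a median of 49.3% over tested genes. Whether the ratio followed GC content among the other isotypes was not tested. In order of falling GC content these were Tuba1c (56.3%, ratio 1.01), Tuba1b (55.3%, 0.889), Tubb2a (55.2%, 1.02) and Tubb4b (54.9%, 1.15). Then came Tuba1a (53.2%, 0.994), Tuba4a (52.6%, 1.18), Tubb5 (52.0%, 1.01) and Tubb2b (51.2%, 1.18). Of these isotypes, all but Tubb5 have uncertain ratios because of their shared windows. In a fit with offsets for GC content and transcript length together, the log2 fold change of Tubb3 was 0.38 (1.31-fold, adjusted p = 1.39e-05) and that of Tubb4a 0.19 (1.14-fold, adjusted p = 0.00051), which is below the 25% limit. Tubb2b was then at 1.22-fold and Tubb4b at 1.18-fold, neither called.

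As a pool, tubulin message was 11.8% more abundant in the anti-miR group, with no GC and length offsets applied. The 10 genes held 2874 and 2784 CPM in the scramble group and 3193 and 3131 CPM in the anti-miR group, a ratio of 1.12 (1.09 to 1.15). Tubb3 and Tubb4a together were at 938 against 1242 CPM. The alpha sum was 950 against 951 CPM (ratio 1.00, 0.954 to 1.05) and the beta sum 1879 against 2212 CPM (1.18, 1.14 to 1.22). Without Tubb3 and Tubb4a, the remaining 8 genes were at 1891 against 1920 CPM (1.02, 0.982 to 1.05). The 3 Tuba1 genes summed, which no longer depends on how reads were split among them, were at 875 against 862 CPM (0.986, 0.937 to 1.04), and Tubb2a and Tubb2b summed at 299 against 311 CPM (1.04, 0.954 to 1.13).

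The share of each isotype in the counts of the 10 genes does not depend on the scaling of libraries. Tubb4a made up 23.9% and 24.5% of tubulin counts in the scramble group and 27.7% and 28.1% in the anti-miR group, 3.70 percentage points more (2.52 to 4.87, Newcombe interval, counting error only). Tubb3 made up 9.01% and 8.91% against 11.7% and 11.1%, or 2.42 points more (1.61 to 3.23). These are the 2 isotypes whose share was larger beyond counting error.

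The shares of Tuba1a, Tubb5, Tubb2a and Tuba1b were smaller. Tuba1a went from 23.0% (22.2 to 23.8, exact binomial interval) to 20.4% (19.7 to 21.2), and Tubb5 from 19.8% to 17.8%. Tubb2a went from 9.30% to 8.48% and Tuba1b from 3.29% to 2.61%. Shares add up to the whole, and of these 4 genes none was called lower in level. The beta genes together held 66.4% (65.5 to 67.3) of tubulin counts in the scramble group and 69.9% (69.1 to 70.8) in the anti-miR group, a difference of 3.52 points (2.27 to 4.77). Longer transcripts give more counts per molecule, and per kilobase the beta share was 3.90 points larger.

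**Figure D4:**
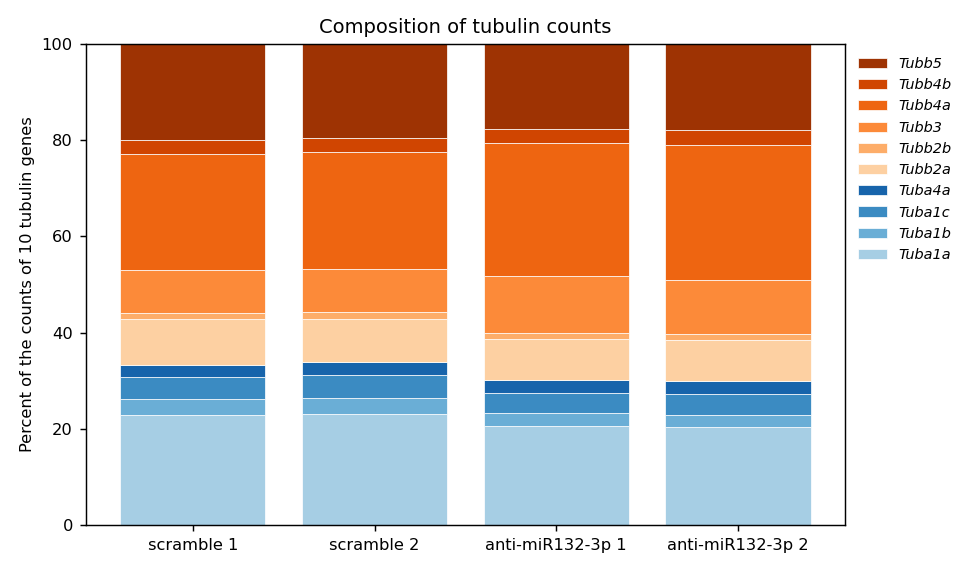
Percent of the counts of the 10 tubulin genes (vertical axis, from 0) that fall on each isotype in each library, alpha genes in blue and beta genes in orange. Tubb3 and Tubb4a together hold 32.9% and 33.4% in the scramble libraries and 39.4% and 39.1% in the anti-miR libraries.

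Within the alpha genes, Tuba1a held 68.4% of alpha counts in the scramble group and 68.0% in the anti-miR group, a difference of -0.42 points (-2.63 to 1.79). Tuba4a held 7.88% and 9.27% of alpha counts (1.38 points, 0.053 to 2.72). It was the only alpha gene whose share of alpha counts differed beyond counting error, and its counts are uncertain because of the overlap with Stk16. Within the beta genes Tubb3 held 13.5% and 16.3%, Tubb4a 36.4% and 39.9%, and Tubb5 29.8% and 25.5%. For the makeup of the 10 genes, chi-square divided by its degrees of freedom was 5.16 to 6.27 across groups and 0.24 and 0.26 within the pairs.

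The promoters of Tubb3 and Tubb4a are shown because both genes were higher in the anti-miR group. They run from 250 bases before to 50 after the start (RefSeq, GRCm38.p6, older than the build of the counts), with capitals on matches, on either strand, to the GC box (GGGCGG), the CCAAT box, the TATA box (TATAAA) or the cyclic AMP response element (TGACGTCA).
Tubb3 promoter, chr8:123411303-123411602, plus strand: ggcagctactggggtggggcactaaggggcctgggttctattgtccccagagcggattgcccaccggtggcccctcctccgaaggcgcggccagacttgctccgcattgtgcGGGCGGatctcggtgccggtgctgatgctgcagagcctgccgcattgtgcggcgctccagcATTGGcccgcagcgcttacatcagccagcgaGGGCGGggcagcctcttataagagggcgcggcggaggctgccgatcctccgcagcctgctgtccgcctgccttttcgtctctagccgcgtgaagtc
Tubb4a promoter, chr17:57087551-57087850, minus strand: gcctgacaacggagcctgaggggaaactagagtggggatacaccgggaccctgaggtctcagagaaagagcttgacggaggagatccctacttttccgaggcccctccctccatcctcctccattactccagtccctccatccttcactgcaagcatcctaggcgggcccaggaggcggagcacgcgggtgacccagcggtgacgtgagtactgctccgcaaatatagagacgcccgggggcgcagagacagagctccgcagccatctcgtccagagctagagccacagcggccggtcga
The Tubb3 promoter held the GC box at 2 places and the CCAAT box at 1, and the Tubb4a promoter held none of the 4 motifs. Of 32851 promoters of this length, 35.7% held the GC box, 37.4% the CCAAT box, 13.6% the TATA box and 1.79% the response element. These are matches of letters and not binding sites.

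Of 10 further tubulin genes, 5 were tested, and edgeR called 0, with 0 at an unadjusted p under 0.05, beside 13.5% called higher and 10.4% lower of all tested genes. Tuba8, a divergent alpha isotype, had 132 counts in the scramble group and 144 in the anti-miR group (ratio 1.14, 0.895 to 1.46). Tubb6, a beta isotype of non-neuronal tissues, had 111 and 86 counts (0.811, 0.604 to 1.08). The gamma tubulins, which nucleate microtubules, were at 363 and 317 counts for Tubg1 and 300 and 328 counts for Tubg2. Tuba3a, Tuba3b, Tubal3 and Tubb1, genes mostly of other tissues, had 0 counts in all 4 libraries. A count of 0 allows up to 3 counts, 0.82 CPM over the scramble group and 0.858 CPM over the anti-miR group.

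Among 13 genes that fold tubulin and assemble the heterodimer, edgeR called 1 higher and 3 lower, beside 13.5% and 10.4% of all tested genes, and the median log2 fold change was -0.17 beside -0.003 over all tested genes. Tbcd, a cofactor that holds beta tubulin during assembly, had 155 counts against 233, 1.57-fold higher (1.28 to 1.94, adjusted p = 0.0027). Pfdn4, a subunit of prefoldin, which hands new tubulin to the chaperonin, had 224 against 132, 1.62-fold lower (1.30 to 2.03, adjusted p = 0.0031). Tbca, another beta tubulin cofactor, had 215 against 156, 1.32-fold lower (1.07 to 1.63, adjusted p = 0.053). With the GC and length offsets, 2 genes of this list were called higher and 0 lower, and the median was 0.041. The 3 genes called lower all lost the call there: Pfdn4 (log2 fold change -0.19, adjusted p = 0.43), the alpha tubulin cofactor Tbcb (-0.21, adjusted p = 0.051) and the prefoldin subunit Vbp1, whose direction turned (0.14, adjusted p = 0.062). The direction of Tbca turned too (0.16, adjusted p = 0.51), Tbcd kept its call (0.44, adjusted p = 0.028), and Tbce, an alpha tubulin cofactor, was called higher (0.40, adjusted p = 0.027).

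Of 28 listed enzymes that modify tubulin, 17 were tested; edgeR called 3 of them higher and 2 lower, beside 13.5% and 10.4% of all tested genes, and their median log2 fold change was 0.066. With the offsets 1 was called higher (Lrrc49, a polyglutamylase subunit) and 1 lower (Ttll1). Hdac6, which removes acetyl groups from alpha tubulin, had 163 counts against 232, 1.49-fold higher (1.21 to 1.83, adjusted p = 0.0055; 0.13 with the offsets). Ttll1, the catalytic subunit of a polyglutamylase that acts on tubulin tails, had 523 against 357, 1.40-fold lower (1.22 to 1.61, adjusted p = 0.00083; 0.00029 with the offsets). Ttl, which restores the terminal tyrosine of alpha tubulin, had 43 against 46 counts, and Atat1, the alpha tubulin acetyltransferase, 151 against 122, and neither was called.

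Tubulin message is destroyed when free tubulin is in excess: Ttc5 recognises the opening residues of tubulin leaving the ribosome, and Scaper brings the CCR4-NOT deadenylase. The codons that encode these residues open every isotype, as atgcgtgagtgc in Tuba1a and atgagggagatc in Tubb3. Of 12 genes of this machinery, all tested, edgeR called 2 higher and 0 lower (1 lower, Cnot9, at an unadjusted p under 0.05), beside 13.5% and 10.4% of all tested genes, and their median log2 fold change was -0.044. Cnot1, the scaffold of CCR4-NOT, had 299 counts against 394, 1.38-fold higher (1.18 to 1.61, adjusted p = 0.0032), and Cnot3 had 30 against 66, 2.30-fold higher (1.47 to 3.67, adjusted p = 0.0096). Ttc5 had 367 against 338 counts (ratio 0.964, 0.829 to 1.12) and Scaper 338 against 364 (1.13, 0.969 to 1.31), neither called.

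**Figure D5:**
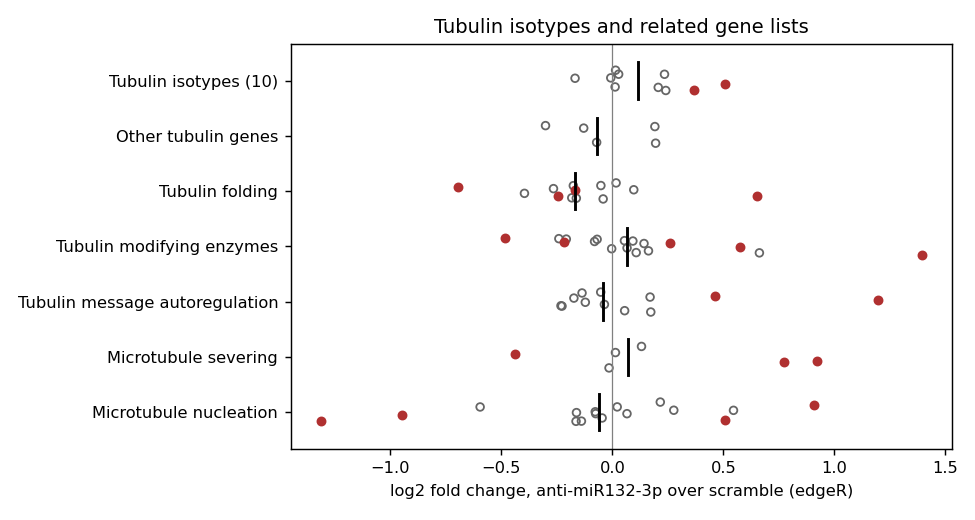
log2 fold change from edgeR (horizontal axis) of each tested gene of the 10 isotypes and of 6 related lists; filled points have an adjusted p under 0.05 and black bars are medians. The medians of the 7 lists lie between -0.17 and 0.12.

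Markers of other retinal cells also differed between the groups, and their part in the tubulin differences was not tested. The summed amacrine markers were at 535 and 533 CPM in the scramble group and 732 and 726 CPM in the anti-miR group. Of these 8 markers, 3 of the 5 tested were called higher, beside 13.5% of all tested genes. Gad2 held 70.2% of the amacrine sum, and Tfap2b, Gad1 and Slc32a1 had 0 counts. The summed Müller glia markers were at 1207 and 1214 CPM against 1775 and 1759 CPM. Of these 10 markers, 2 of the 6 tested were called higher, again beside 13.5% of all tested genes. None was at 0, and Dkk3 held 89.9% of the Müller glia sum. Without Dkk3 (ratio 1.48) and Apoe (ratio 3.31) the other 8, among them Glul and Rlbp1, summed to 110 against 109 CPM, a ratio of 0.987 (0.856 to 1.14). Of these 8, only Sox9 had an interval above 1 (ratio 1.69, 1.09 to 2.63), and none had an interval below 1. Microglia markers were higher but low in both groups, at 1.64 and 1.09 CPM against 18.9 and 22.9 CPM (ratio 15.3, 6.26 to 48.4). None of the 11 was tested for want of counts, and Trem2 had 0 counts. Rod markers were lower, at 88.7 and 80.3 CPM against 16.6 and 13.2 CPM, with Gnat1 at 0 counts, as were cone markers (ratio 0.206, 0.107 to 0.369) and astrocyte markers (ratio 0.558, 0.385 to 0.801). Of 6 cone and 5 astrocyte markers, 0 and 1 were tested, and none was called. Gfap held 85.5% of the astrocyte sum, and its own interval held 1 (ratio 0.693, 0.469 to 1.02). For the bipolar, horizontal, endothelial, mural and fibroblast, pigment epithelium and oligodendrocyte sums the intervals held 1.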

How the data were processed

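The authors deposited whole-number counts per gene for 4 libraries, and the submitters' processing notes name the build GRCm39 and, without role or order, HISAT2 2.2.1, SAMtools 1.10, Trimmomatic 0.39, Cuffdiff, Cuffnorm and Cufflinks. Strand setting, counting tool and annotation release were not given in the sources used here. The members and gene lists were chosen with earlier results of these data known. Symbols were matched for 51486 identifiers; Matcap1, Tmcp1 and Tmcp2 were not matched.

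The tests ran in R 4.3.3, with edgeR 4.0.16 for the main fit (filterByExpr, which kept 98.6% of the counts, TMM, glmQLFit, glmQLFTest, Benjamini-Hochberg), with limma 3.58.1 and DESeq2 1.42.0 as alternatives, and in Python 3.11.15 with scipy 1.17.1 and Biopython 1.88. Recovery of planted differences by the edgeR fit was tested on counts simulated with sampling noise alone, without any spread between pools. Ratios and shares use counts summed over a pair, with exact (Clopper-Pearson) or Newcombe 95% intervals. Offsets for GC content and length came from splines with 4 degrees of freedom per library. Transcripts were the APPRIS principal ones of GENCODE M21, on an older build than the counts, so the only coordinates given are those of RefSeq promoters, on GRCm38.p6. The text names all 10 isotypes and, of each related list, up to 4 genes with the largest fold among those past the fold limit (25% higher or 20% lower) with at least 50 counts; some items are not reported here. Tuba8, Tubb6, Tubg1, Tubg2, Ttl, Atat1, Ttc5, Scaper, Cnot9, Tbcb, Tbce, Vbp1, Lrrc49, Katna1, Stk16 and the markers named were chosen after their values were seen. Replicate numbers did not pair the libraries (correlation of deviations -0.0072 over 5221 genes). Marker sums without Thy1 or without Dkk3 and Apoe, and the related lists' calls with offsets, were added after seeing the data.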

Additional observations from a re-analysis of the deposited data

How the results depend on the processing

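Counts of calls depended on the spread assumed between pools, which these libraries do not measure. The reported counts were 1540 genes higher, 1183 lower and 2 isotypes, both higher. Without a low-count filter edgeR called 1 gene higher, 2 lower and 0 isotypes (0 higher), and the prior degrees of freedom were 1.16 in place of 14.1. When any 1 library was dropped, both counts of genes and the count of isotypes were 0 (lowest 0, highest 0), the remaining library of that group being given the spread of the other group. DESeq2 called 477 genes higher and 276 lower and kept both isotypes. An adjusted p under 0.01 left 856 genes higher and 547 lower. Summing the pairs and assuming a spread between pools, a setting added after the data were examined, gave 470 genes higher and 56 lower at a coefficient of variation of 0.1, 50 and 6 at 0.2, and 22 and 3 at 0.3, with 0 isotypes (0 higher) each time. At 1.5-fold, 1655 of 3088 genes and 0 of 2 isotypes stayed past the limit. With GC and length offsets, a check of the fold limit added later, 1 isotype did, Tubb3. Beyond what a setting itself imposes, the cause was not tested. The replicate block gave 1740 genes higher, 1437 lower and 2 isotypes and changed no isotype's call. Scaling by library totals moved the median log2 fold change of all genes by 0.027. The summed tubulin level (log2 fold 0.16) ran from 0.14 to 0.19 and the beta share difference (3.52 points) from 3.28 to 3.90 over their alternatives. Neither was computed with the GC and length offsets, under which Tubb4a, the most counted isotype, was at a log2 fold change of 0.19, so these ranges do not cover that setting. Over 18 fits, the log2 fold change ran from 0.38 to 0.56 for Tubb3 and from 0.19 to 0.39 for Tubb4a.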

Other observations

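Of 9 genes whose products sever microtubules, 6 were tested, with 2 higher and 1 lower by edgeR's quasi-likelihood test, beside 13.5% and 10.4% of all tested genes; with GC and length offsets these were 2 and 0. Fign, which encodes fidgetin, had 41 counts in the scramble group and 67 in the anti-miR group, 1.71-fold higher (1.14 to 2.59, adjusted p = 0.044), and Katnbl1 186 against 131, 1.36-fold lower (1.08 to 1.71, adjusted p = 0.042; 0.12 with the offsets). Katna1, the catalytic katanin subunit, was at 73 against 69 counts and was not called.

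Of 17 nucleation genes, 16 were tested, with 2 called higher and 2 lower, near the shares of all tested genes (13.5% and 10.4%), and 1 and 3 with the offsets. Nedd1, which anchors the gamma tubulin ring complex, had 42 against 16 counts, 2.51-fold lower (1.38 to 4.78, adjusted p = 0.032), and Haus4, an augmin subunit, 71 against 35, 1.94-fold lower (1.28 to 3.00, adjusted p = 0.024). Haus8, another augmin subunit, had 65 against 41 counts, 1.52-fold lower, and was not called (adjusted p = 0.20). Cdk5rap2 had 30 against 54 counts, 1.88-fold higher (1.18 to 3.05, adjusted p = 0.032; 0.076 with the offsets). Each of these values compares 1 pool with 1 pool.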
